A study of Homo sapiens with 6 samples.

Results

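Interferon-stimulated genes are described here in doxorubicin-resistant breast cancer cells with and without cyperotundone (CYT), a sesquiterpenoid from Cyperus. The 44 genes were chosen by gene name, as well-known genes whose transcription rises when cells meet an interferon, and all 44 are among the 58302 genes of the deposited table. RNA was sequenced from MDA-MB-231-DR cells, which were made resistant to doxorubicin from MDA-MB-231, a triple-negative breast cancer line. Control cells and cells given CYT each gave 3 libraries. By the study's methods, the resistant line is kept in medium with a low concentration of doxorubicin, and whether the drug was present during the CYT treatment is not given in the sources used here, nor are the CYT dose and time for these libraries. All 6 libraries come from this 1 resistant line, so no parental cells stand beside them. Nothing in the labels says that the replicates were separate cultures, so the p-values measure the spread between these samples, which may be technical.

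Type I and type III interferons bind receptors at the cell surface, and the kinases JAK1 and TYK2 then phosphorylate STAT proteins. STAT2 and IRF9 are parts of a complex that binds the interferon-stimulated response element in promoters and switches on genes that detect, degrade or trap viral nucleic acids and proteins. Type II interferon acts mainly through a different DNA element, the gamma-activated site. Breast cancer cells can carry a standing level of these transcripts with no added interferon, and tumor cells after DNA damage are known for it.

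The promoter element itself was common among the members, though not found in all of them. RefSeq promoter sequence (GRCh38.p14, from 250 bases before to 50 bases after the gene's start) was matched for 35 of the 44 members. The letters GAAANNGAAA, the core of the interferon-stimulated response element, were searched on both strands, and a window was counted once however many matches it held. They occurred in 22 of the 35 windows (62.9%), against 3.65% of 27305 windows of all RefSeq genes. The members were chosen as known interferon targets, so this contrast is not a test. By the result of the CYT comparison, 4 of 5 members that were higher, 1 of 3 that were lower and 16 of 23 that did not pass the test had the element. These shares leave out IRF7 and OASL, which were higher, and GBP2, which was lower, as they had no window. The gamma-activated site, searched as TTCNNNGAA, occurred in 9 of the 35 windows (25.7%), against 7.88% of all windows. A match to these letters is a description of the sequence and not a measured binding site.

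The stretches with matches before the start of differentially expressed members are shown first, 5′ to 3′ along the gene's strand, with each match to the element that lies whole within the stretch in capitals. PARP14 is at chr3:122680790-122680838 on the plus strand, IFI6 at chr1:27672256-27672305 on the minus strand and IFI27 at chr14:94110608-94110670 on the plus strand, and all 3 were higher after CYT. GBP1 is at chr1:89065306-89065355 on the minus strand and was lower. ISG15 (chr1:1013364-1013419, plus strand), IFIT1 (chr10:89392487-89392549, plus strand) and IFIT3 (chr10:89327821-89327904, plus strand), textbook interferon targets that did not pass the test, were added after the values were seen, so that the element can be compared between the classes. Matches of GAAA form are in the reading direction of the gene, and matches of TTTC form lie on the other strand.
PARP14: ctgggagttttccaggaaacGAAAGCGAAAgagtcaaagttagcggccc
IFI6: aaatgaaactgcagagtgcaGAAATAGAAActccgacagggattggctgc
IFI27: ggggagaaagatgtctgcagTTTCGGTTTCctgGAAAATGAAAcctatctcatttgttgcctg
GBP1: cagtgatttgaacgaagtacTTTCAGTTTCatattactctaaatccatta
ISG15: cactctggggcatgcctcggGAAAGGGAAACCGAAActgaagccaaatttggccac
IFIT1: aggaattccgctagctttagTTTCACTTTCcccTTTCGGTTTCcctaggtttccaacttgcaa
IFIT3: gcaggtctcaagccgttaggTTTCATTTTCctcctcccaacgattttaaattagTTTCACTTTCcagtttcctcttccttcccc
The PARP14 match lies within the last 49 bases before the RefSeq start. In ISG15 the 2 matches overlap, so that the capitals run together. IFI6 has 3 matches in its window, of which 1 is shown whole, and the stretch opens with the end of another, in lower case. TRIM21, which was also higher, has its 2 matches after the start. IRF1 has no match to this element but has the gamma-activated site, as have PARP14 and IFI27. The RefSeq starts are not always the starts of the gene models in the deposited table. There PARP14, GBP1, IFI27 and ISG15 begin upstream of the stretches shown, IFI27 at chr14:94104836 and ISG15 at chr1:1001138.

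Control libraries held 14050849 to 17770102 gene counts each, and CYT libraries 13056270 to 14106017. CYT replicate 2 stood apart, with a correlation of log2 CPM (counts scaled to library size with the TMM method) of 0.905 and 0.904 with the other CYT libraries, against 0.953 to 0.971 for the other pairs within a group. The 8 marker genes of the MDA-MB-231 line were counted in every library, and their sum ran from 3700 to 4095 CPM in control and from 1827 to 1959 CPM after CYT. VIM and EGFR were lower by edgeR's quasi-likelihood test, and 7 of the 8 had a negative log2 difference. Of 18 leukocyte markers, CD3E, CLEC4C and TYROBP had no count in any library, and PTPRC had 0, 0 and 0 counts in control and 7, 2 and 2 in CYT libraries. The summed leukocyte markers ran from 1.44 to 4.03 CPM in control and from 8.75 to 12.5 CPM after CYT. Only 3 of the 18 had enough counts to be tested, and CD14 and FCER1G were higher by edgeR's quasi-likelihood test. Not all went this way: ITGAX had 7, 5 and 1 counts in control and 0, 0 and 0 after CYT. CSF1R had 20, 8 and 7 counts in control and 2, 8 and 3 after CYT. The part of either marker list in the results for the interferon-stimulated genes was not tested. In such bulk RNA a change in how many cells make a transcript and a change in how much each cell makes cannot be told apart.

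CYT moved interferon-stimulated genes in both directions and not as a block. Of the 39 members counted well enough to test, 7 rose (IFI27, PARP14, IRF7, TRIM21, OASL, IRF1 and IFI6) and 4 fell (OAS1, GBP1, GBP2 and IFI16). A differentially expressed gene (DEG) had a Benjamini-Hochberg adjusted p under 0.05 over all 15572 genes tested and an absolute log2 fold change over 1. The 7 are 17.9% of the tested members, against 15.2% of all tested genes called higher, and the 4 are 10.3%, against 12.2% of all tested genes called lower. The median log2 fold change over the tested members was 0.09, beside 0.01 over all genes tested. Every CYT library lay above every control library in 13 members (33.3%, against 23.4% of all tested genes), and below in 6 (15.4%, against 22.7%). Both shares of DEGs among the members were thus near those of all genes. All members are protein-coding, and of tested protein-coding genes 11.9% were higher and 13.8% lower, with a median of -0.07. Every CYT library lay above control in 19.6% of these and below in 25.2%. Against protein-coding genes alone, the members' higher shares were thus further above and their lower shares further below.

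All members together held 0.188% ± 0.00637 (SD, n = 3) of the counts in control and 0.251% ± 0.00479 (SD, n = 3) after CYT. Their summed level was 2087, 1790.4 and 1832 CPM in control replicates 1 to 3, and 2508, 2365 and 2616 CPM in CYT replicates 1 to 3, with no overlap between the groups. An exact permutation test of 3 against 3 libraries cannot go below p = 0.1 (two-sided), which is why the single members are judged by the fit over all genes.

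**Figure D1:**
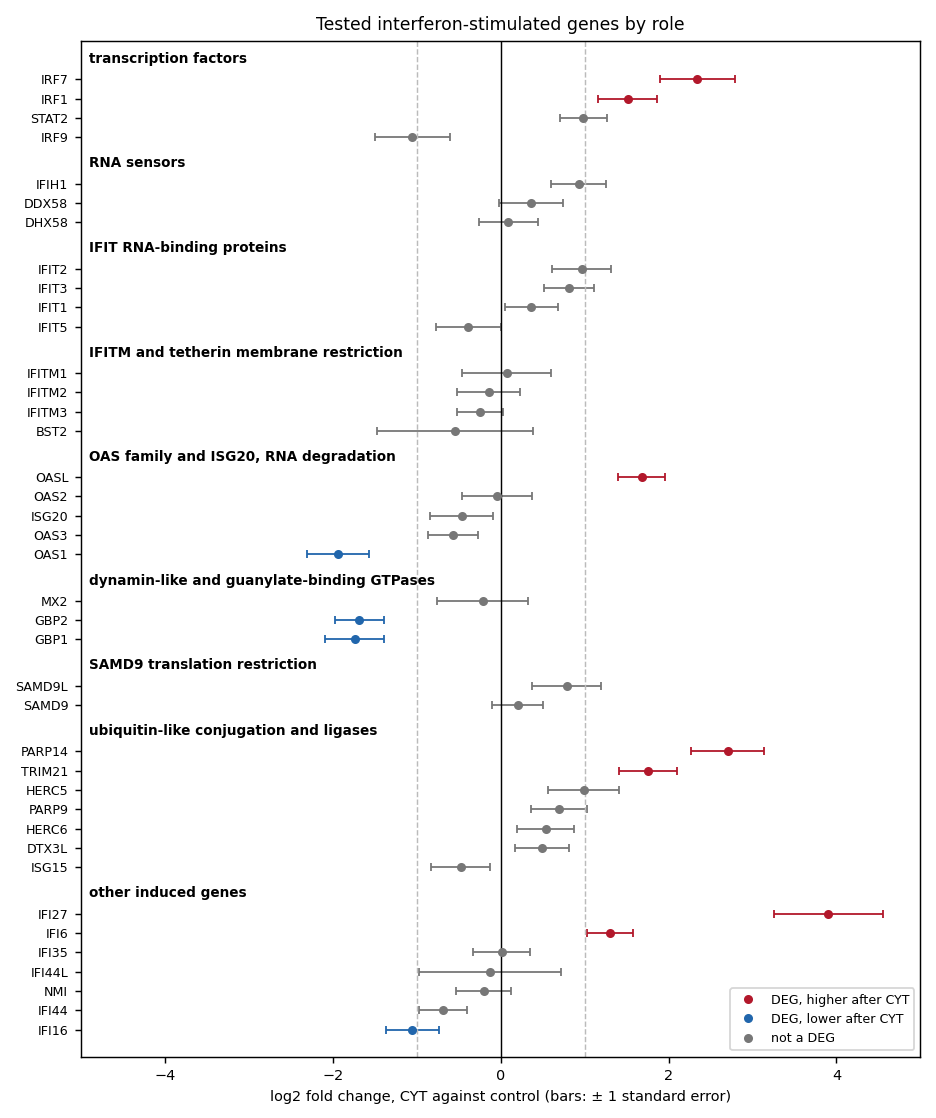
Log2 fold change of CYT against control (x axis) for the 39 tested members, grouped by role, with points for the estimate and bars for 1 standard error, and dashed lines mark the fold criterion at -1 and 1. The DEGs lie on both sides, with 7 higher (red) and 4 lower (blue), and IFI27 (3.90) and OAS1 (-1.94) are the ends of the range.

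Of the 4 transcription factors, 2 were higher (50%, against 15.2% of all tested genes) and none lower. IRF7 is the factor that amplifies production of type I interferon, and its gene (ENSG00000185507) lies at chr11:612553-615999 in the deposited hg38 coordinates. It was at 61.1, 33.0 and 38.0 CPM in the control libraries and at 249.7, 104 and 318 CPM after CYT. Every treated library was above every control library, with CYT replicate 2 the lowest of the treated. The log2 fold change was 2.34 ± 0.45 (SE, adjusted p = 0.0049, edgeR's quasi-likelihood test).

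IRF1, a factor induced mainly by type II interferon (ENSG00000125347, chr5:132481609-132490798), had 42.9, 31.1 and 37.7 CPM without CYT and 128, 63.1 and 128 CPM with it. CYT replicate 2 again sat between the control range and the other treated libraries. The change was 1.51 ± 0.35 (SE) on the log2 scale (adjusted p = 0.0115, edgeR), and without control replicate 3 it was 1.50 with an adjusted p of 0.0539, which ended the call. Opposite to IRF1 runs the noncoding gene C5orf56 with 38 to 113 counts a library, and whether counting used strand is not given in the sources used here.

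STAT2 and IRF9 belong to the complex that binds the element printed above. STAT2 was at 43.1, 31.1 and 33.1 CPM in control and at 71.2, 74.8 and 66.8 CPM after CYT, with no overlap. Its log2 difference of 0.99 ± 0.28 (SE) passed the p threshold (adjusted p = 0.0277, edgeR) and just missed the fold criterion. It met both with upper-quartile normalization (1.14, adjusted p = 0.0141), among genes of at least 5 CPM (1.09, adjusted p = 0.0200) and with the length and GC correction (1.14, adjusted p = 0.00112). STAT2 missed the p threshold in edgeR with no filter (adjusted p = 0.0662). The same held when any 1 library except CYT replicate 2 was left out (adjusted p from 0.0537 to 0.127, edgeR). IRF9 was at 12.0, 6.02 and 17.1 CPM in control and at 6.63, 3.56 and 6.75 CPM after CYT, a difference of -1.05 ± 0.45 (SE, adjusted p = 0.110, edgeR) with overlapping groups. The table also holds AL136295.5, a gene that overlaps IRF9 on the same strand and had 153 to 816 counts a library, so IRF9's counts are uncertain, and without control replicate 2 the difference of -1.38 was called (adjusted p = 0.0462).

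None of the 3 cytosolic RNA sensors was a DEG by edgeR, and the same held with DESeq2 and limma, while 1 had an unadjusted p under 0.05. DDX58 (RIG-I), which recognizes short RNA with a triphosphate end, was at 26.5, 47.8 and 32.5 CPM in control and at 35.3, 68.6 and 32.9 CPM after CYT, with a log2 difference of 0.36 ± 0.38 (SE, adjusted p = 0.517, edgeR). IFIH1 (MDA5), the sensor of long double-stranded RNA, was at 5.64, 6.82 and 4.82 CPM in control against 10.2, 12.8 and 10.01 CPM after CYT. These groups did not overlap, and the difference was 0.93 ± 0.33 (SE, adjusted p = 0.0584, edgeR), which was called with upper-quartile normalization (1.08, adjusted p = 0.0357) and among genes of at least 5 CPM (1.03, adjusted p = 0.0468). DHX58 (LGP2), a helper of both, differed by 0.09 ± 0.35 (SE, adjusted p = 0.867, edgeR).

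The IFIT proteins bind viral RNA that lacks host cap marks, and none of the 4 genes was a DEG by edgeR, DESeq2 or limma although all were well counted. An unadjusted p under 0.05 was found for 2 of them. IFIT1 was at 116, 182 and 156 CPM in control and at 154, 255 and 175 CPM after CYT, with a log2 difference of 0.37 ± 0.31 (SE, adjusted p = 0.413, edgeR). IFIT2 had 52.6, 77.0 and 65.4 CPM in control against 91.7, 184 and 105 CPM, a difference of 0.96 ± 0.35 (SE, adjusted p = 0.0642). IFIT3 had 61.8, 66.8 and 75.8 CPM in control against 102, 156 and 101 CPM, a difference of 0.81 ± 0.30 (SE, adjusted p = 0.0691). The treated libraries of IFIT2 and IFIT3 were all above control, with CYT replicate 2 the highest, yet neither met the threshold, though IFIT2 did with upper-quartile normalization (1.11, adjusted p = 0.0410). IFIT5 differed by -0.38 ± 0.38 (SE, adjusted p = 0.486, edgeR). IFIT1, IFIT2 and IFIT3 lie inside the gene LIPA on the other strand, which had 2725 to 4990 counts a library.

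The 4 membrane restriction factors were also without a DEG by edgeR, DESeq2 or limma, and 0 of them had an unadjusted p under 0.05. IFITM3, which blocks fusion of viruses with endosomal membranes, was one of the most abundant members at 354, 251 and 352 CPM in control and 296, 234 and 278 CPM after CYT. Its log2 difference was -0.24 ± 0.28 (SE, adjusted p = 0.541, edgeR). IFITM2 was at 153, 96.4 and 101 CPM in control and at 118, 59.4 and 139.8 CPM after CYT, while IFITM1, which overlaps IFITM2 on the same strand, did not exceed 1.22 CPM in any library. BST2 (tetherin), which holds budding virions at the cell surface, had 28, 11 and 7 counts in control and 14, 0 and 12 after CYT, and differed by -0.55 ± 0.93 (SE, adjusted p = 0.694, edgeR).

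Members of 1 family went opposite ways among the OAS genes, which encode sensors that make 2′-5′ oligoadenylate to activate RNase L. OAS1 (ENSG00000089127, chr12:112906777-112933222) was at 8.74, 6.02 and 8.63 CPM in control and at 1.97, 2.21 and 1.91 CPM after CYT. All treated libraries were below all controls, and the 3 agree closely. OAS1 fell by 1.94 ± 0.37 (SE) on the log2 scale (adjusted p = 0.00464, edgeR). OASL, the family member without synthetase activity that enhances RIG-I signaling (ENSG00000135114, chr12:121019111-121039242), was at 92.8, 85.0 and 73.8 CPM in control and at 284, 228 and 294 CPM after CYT. Its groups were far apart, and it rose by 1.68 ± 0.28 (SE, adjusted p = 0.00257, edgeR). OAS3, which lies between OAS1 and OAS2, had a difference of -0.57 ± 0.30 (SE, adjusted p = 0.186), OAS2 of -0.05 ± 0.42 (SE, adjusted p = 0.947) and the exonuclease gene ISG20 of -0.46 ± 0.37 (SE, adjusted p = 0.386).

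Of the 3 tested GTPases, both guanylate-binding proteins fell (66.7%, against 12.2% of all tested genes). They are strongly induced by type II interferon and coat intracellular pathogens. GBP1 (ENSG00000117228, chr1:89052319-89065360) was at 22.3, 30.0 and 30.2 CPM in control and at 7.41, 11.2 and 6.04 CPM after CYT. Its neighbor GBP2 (ENSG00000162645, chr1:89106132-89150456) was at 76.7, 59.8 and 59.8 CPM in control and at 20.3, 22.6 and 18.2 CPM after CYT. Neither gene's groups overlapped. The log2 fold changes were -1.74 ± 0.35 (SE, adjusted p = 0.00589) and -1.68 ± 0.29 (SE, adjusted p = 0.00302, edgeR's quasi-likelihood test). MX2, an antiviral GTPase of the nuclear pore, had 12 to 29 counts a library and differed by -0.21 ± 0.54 (SE, adjusted p = 0.799). Its paralog MX1, a classical marker of type I interferon, had 12, 10 and 9 counts in control and 18, 1 and 13 after CYT, too few for the test.

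Another 4 members had at most 3 counts in every library and were not tested. These were RSAD2 (viperin) and its neighbor CMPK2, which together make a chain-terminating nucleotide, the ubiquitin ligase gene TRIM22, and XAF1. CMPK2 and XAF1 had no count in any library, and RSAD2 had 1, 3 and 0 counts in the CYT libraries alone. For these genes a difference between the groups was not detectable at this depth.

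In the group of ubiquitin-like conjugation and ligases, 2 of 7 tested members rose (28.6%, against 15.2% of all tested genes) and none fell. PARP14, an ADP-ribosyltransferase (ENSG00000173193, chr3:122680618-122730840), was at 10.7, 16.4 and 12.6 CPM in control and at 58.0, 143 and 57.9 CPM after CYT. Here CYT replicate 2 was the highest, unlike in IRF1 and IRF7. The log2 fold change was 2.71 ± 0.44 (SE, adjusted p = 0.00235, edgeR), and 2.12 without that library. TRIM21, the cytosolic antibody receptor (ENSG00000132109, chr11:4384897-4393696), was at 40.5, 21.8 and 33.6 CPM in control and at 124, 80.5 and 119 CPM after CYT, without overlap. It rose by 1.75 ± 0.34 (SE, adjusted p = 0.00525, edgeR).

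ISG15 encodes the ubiquitin-like protein that other members attach to proteins, and it was at 486, 314 and 310.3 CPM in control and at 313, 157 and 328 CPM after CYT. The groups overlapped, with a difference of -0.48 ± 0.35 (SE, adjusted p = 0.345, edgeR). HERC5, the ligase that attaches ISG15, was at 17.8, 21.0 and 17.3 CPM in control and at 27.4, 63.2 and 20.8 CPM after CYT, a difference of 0.99 ± 0.42 (SE, adjusted p = 0.109, edgeR) that was largest in CYT replicate 2 and came to 0.36 without that library. PARP9 and DTX3L, partners that share a promoter region on chromosome 3 with PARP14 nearby, differed by 0.70 ± 0.34 (SE, adjusted p = 0.152) and 0.49 ± 0.32 (SE, adjusted p = 0.282). The other tested members of the group and both SAMD9 genes, which restrict translation of viral RNA, had differences from 0.20 (SAMD9) to 0.79 (SAMD9L), none a DEG.

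Among the remaining members, IFI27 and IFI6 rose and IFI16 fell. IFI27 and IFI6 are related small membrane proteins of mitochondria and the endoplasmic reticulum. IFI6 (ENSG00000126709, chr1:27666061-27672218) was at 34.5, 39.4 and 34.5 CPM in control and at 85.4, 88.3 and 93.7 CPM after CYT. These are narrow and separate groups, and the log2 fold change was 1.30 ± 0.27 (SE, adjusted p = 0.00682, edgeR).

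IFI27 (ENSG00000165949, chr14:94104836-94116698) had the steepest rise from the lowest start, with 1, 3 and 7 counts in control and 57, 47 and 43 in CYT libraries. That is 0.0620, 0.160 and 0.503 CPM against 4.02, 3.35 and 3.42 CPM. The fitted log2 fold change was 3.90 ± 0.65 (SE, adjusted p = 0.00271, edgeR), and 4.87 without control replicate 3, which held 7 of the 11 control counts. Pooled over the 3 libraries of each group, 11 counts in control and 147 after CYT gave a depth-scaled ratio of 16.2 (exact 95% interval 8.79 to 33.1, for counting error only). Even after CYT it had the lowest CPM of the members that rose. The leukocyte marker CD14 was also higher after CYT, at 3.60, 4.20 and 3.89 CPM. Others of that list were lower, as ITGAX, with 7, 5 and 1 counts in control and 0, 0 and 0 after CYT. The part of these markers in the IFI27 result was not tested.

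IFI16, a nuclear DNA sensor (ENSG00000163565, chr1:158999968-159055155), was at 19.9, 21.4 and 23.7 CPM in control and at 8.46, 13.2 and 9.61 CPM after CYT. The groups did not overlap, but the log2 fold change of -1.05 ± 0.31 (SE, adjusted p = 0.0324, edgeR) was close to both criteria. It was a DEG in 5 of 13 other settings, and leaving out any 1 library except CYT replicate 2 ended the call, with an adjusted p from 0.0584 (without control replicate 2) to 0.116 (without CYT replicate 1). It was 0.0676 and 0.104 without control replicates 1 and 3, and 0.103 without CYT replicate 3. The other 4 tested genes of this group did not pass. IFI44 had -0.69 ± 0.28 (SE, adjusted p = 0.0989, edgeR) with every treated library below control, and IFI35, NMI and IFI44L lay between -0.20 and 0.01.

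**Figure D2:**
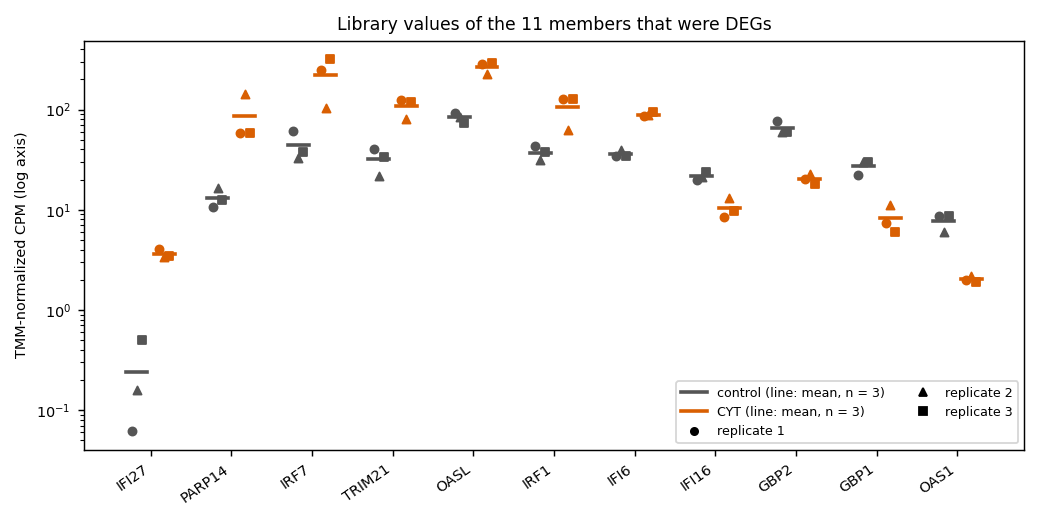
TMM-normalized CPM (y axis, log scale) of the 11 members that were DEGs, ordered by fold change, with 1 marker per library (shape gives the replicate number) and a line at the mean of 3 libraries. No gene's control and CYT points overlap, and CYT replicate 2 (orange triangle) is the lowest treated library for IFI27, IRF7, TRIM21, OASL and IRF1 and the highest for PARP14, IFI16, GBP2, GBP1 and OAS1.

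Without CYT replicate 2, the library that stood apart, the same 7 members were higher and the same 4 lower. In the fit with the replicate number as a block, the 7 and the 4 were again the same genes. In a fit of log2(FPKM + 1) with limma, OAS1 (-0.59, adjusted p = 0.00327) and IFI27 (0.55, adjusted p = 0.000944) passed the p threshold and not the fold criterion, on a scale that understates the change of low genes.

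Between genes, levels can be compared only per length, as FPKM (fragments scaled to gene length and library size). On that scale ISG15 led in control at 176 ± 37.3 FPKM (SD, n = 3) and IFITM3 followed at 147 ± 20.3 (SD, n = 3), a gap smaller than their spread. After CYT they were level at 127 ± 39.7 and 126 ± 11.5 FPKM (SD, n = 3). Next in control came IFITM2 (38.3 ± 7.92 FPKM), IFIT3 (25.6 ± 3.48) and IFIT1 (23.9 ± 6.67) (SD, n = 3 for each), and the spread of IFIT1 meets those of both others. After CYT the next were OASL (49.0 ± 3.81 FPKM), IFIT3 (46.0 ± 15.1), IFI6 (44.02 ± 2.38) and TRIM21 (40.9 ± 7.30), and these 4 do not differ beyond their spread (SD, n = 3 for each). The genes that fell had been of middle or low level, with GBP2 at 8.92 ± 0.848, GBP1 at 3.67 ± 0.793, IFI16 at 2.19 ± 0.269 and OAS1 at 0.857 ± 0.129 FPKM in control (SD, n = 3 for each).

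**Figure D3:**
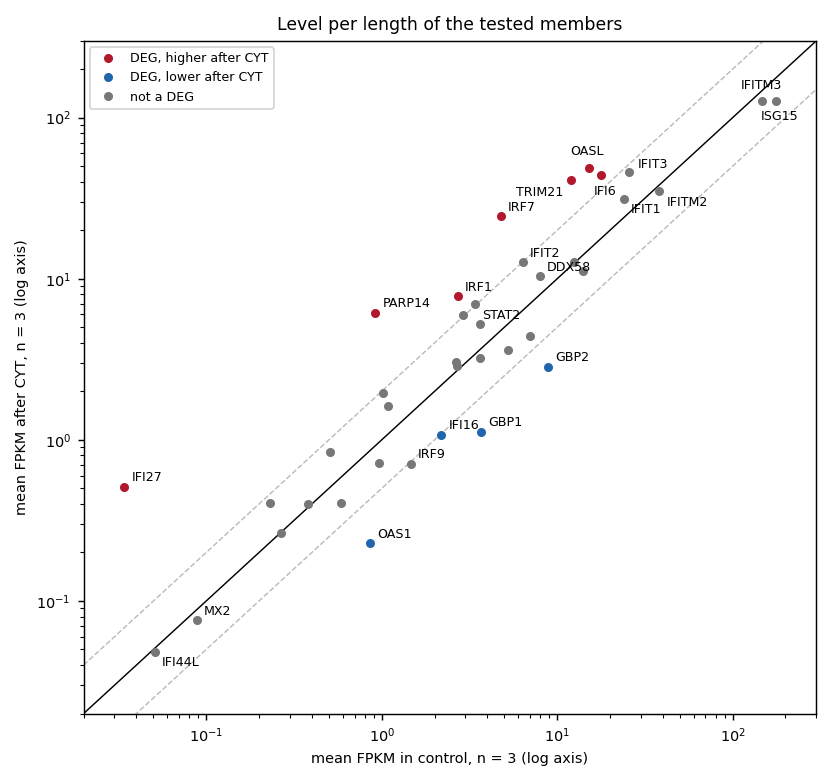
Mean FPKM of each tested member in control (x axis) and after CYT (y axis), n = 3 each, on log axes, and the solid line marks equal levels and dashed lines a 2-fold difference. ISG15 and IFITM3 are at the top near the line, while IFI27 rose from 0.0342 to 0.511 FPKM at the lower left.

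The rest of the pathway, from ligands to feedback, was described through 104 further genes, of which 75 were tested. Of these, 4 were higher (5.33%, against 15.2% of all tested genes) and 8 lower (10.7%, against 12.2%), with a median log2 fold change of -0.14. Of 21 interferon genes, 18 had no count in any library and 20 had at most 3 counts in every library. The exception, IFNL2, reached 7 counts in CYT replicate 1 and had 0 or 1 in the other libraries. No ligand had enough counts to be tested, so a difference between the groups was not detectable at this depth.

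All 6 receptor genes and 6 of 8 genes of the JAK-STAT list had enough counts to be tested. IFNLR1, the specific chain of the type III receptor, was at 15.2, 13.4 and 15.1 CPM in control and at 5.01, 1.71 and 7.15 CPM after CYT, and fell by 1.66 ± 0.48 (SE) on the log2 scale (adjusted p = 0.0283, edgeR). That call was lost without control replicate 1 (adjusted p = 0.0708), control replicate 3 (0.0745) or CYT replicate 1 (0.0667), and limma on log2(FPKM + 1) gave -0.93, short of the fold criterion. The type I receptor chains IFNAR1 and IFNAR2 differed by 0.50 ± 0.38 (SE, adjusted p = 0.362) and -0.02 ± 0.28 (SE, adjusted p = 0.960). IFNGR1, the ligand-binding chain of the type II receptor, differed by 1.02 ± 0.37 (SE, adjusted p = 0.0658, edgeR), and with upper-quartile normalization its 1.16 was called (adjusted p = 0.0439). No gene of the JAK-STAT list was a DEG among 6 tested by edgeR, DESeq2 or limma, and 2 had an unadjusted p under 0.05.

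Of 11 tested negative regulators, 1 rose and 1 fell (9.09% each, against 15.2% and 12.2% of all tested genes). USP18 removes ISG15 from proteins and shuts off IFNAR2, and it was at 22.0, 17.8 and 20.1 CPM in control and at 4.65, 3.70 and 3.50 CPM after CYT. It fell by 2.33 ± 0.32 (SE) on the log2 scale (adjusted p = 0.00133, edgeR), with no overlap. SOCS1, an inhibitor of JAK kinases, was at 1.98, 1.70 and 1.44 CPM in control and at 6.35, 3.13 and 5.09 CPM after CYT, a rise of 1.50 ± 0.43 (SE, adjusted p = 0.0269, edgeR). Its call did not hold without any 1 of control replicates 1 (adjusted p = 0.0641), 2 (0.0675) and 3 (0.104) or CYT replicates 1 (0.106) and 3 (0.0703). RMI2 overlaps SOCS1 on the other strand with 283 to 645 counts a library. SOCS3 had -1.05 ± 0.43 (SE, adjusted p = 0.0932), and with the replicate block its -1.13 was called (adjusted p = 0.00798, edgeR).

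Among 17 tested genes of nucleic acid sensing, 1 rose (5.88%, against 15.2% of all tested genes) and 3 fell (17.6%, against 12.2%). TICAM1 (TRIF), the adaptor of TLR3, was at 27.0, 15.0 and 32.4 CPM in control and at 4.65, 1.78 and 4.29 CPM after CYT, and fell by 2.79 ± 0.47 (SE) on the log2 scale (adjusted p = 0.00276, edgeR). IRF3, the factor that first switches on type I interferon, was at 154, 84.4 and 113 CPM in control and at 586, 298 and 724 CPM after CYT, and rose by 2.19 ± 0.40 (SE, adjusted p = 0.00371, edgeR). Both changes were clear of the spread between libraries. BCL2L12 starts next to IRF3 and overlaps it on the other strand, with 1756 to 2573 counts in control and 1896 to 5022 after CYT, so reads of the 2 genes cannot be told apart without strand.

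The kinase gene IKBKE (-1.41 ± 0.44 SE, adjusted p = 0.0394) and the factor gene IRF5 (-1.31 ± 0.39 SE, adjusted p = 0.0312, edgeR) were the other 2 that fell. IKBKE lost its call without control replicates 1 (adjusted p = 0.121), 2 (0.0506) or 3 (0.0871) or CYT replicate 3 (0.0823), and also with upper-quartile normalization (0.0556) and among genes of at least 5 CPM (0.0566). IRF5 lost its call without control replicates 1 (0.113) or 3 (0.0815) or CYT replicates 1 (0.0788) or 3 (0.0552), and it missed the fold criterion with limma on log2(FPKM + 1) (-0.58) and with the length and GC correction (-0.95). TLR3 itself, the endosomal sensor of double-stranded RNA, had -1.46 ± 0.53 (SE, adjusted p = 0.0650) and was called without CYT replicate 2 (-1.90, adjusted p = 0.0248), with the replicate block (-1.54, adjusted p = 0.0412), with DESeq2 (adjusted p = 0.0493) and with the length and GC correction (adjusted p = 0.0169). The adaptor MAVS (-0.37 ± 0.52 SE), the kinase TBK1 (-0.85 ± 0.40 SE), the DNA sensor CGAS (0.58 ± 0.30 SE) and its partner STING1 (-0.60 ± 0.38 SE) were not DEGs. Without CYT replicate 2, TBK1 was called at -1.33 (adjusted p = 0.0121).

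A second set of 35 tested interferon-stimulated genes outside the 44 had 2 higher (5.71%, against 15.2% of all tested genes) and 3 lower (8.57%, against 12.2%). SLFN5, of the Schlafen family, was at 4.09, 3.62 and 3.74 CPM in control and at 26.7, 39.7 and 22.9 CPM after CYT, a rise of 2.96 ± 0.35 (SE, adjusted p = 0.000748, edgeR). PML, the scaffold of nuclear bodies, rose by 1.43 ± 0.37 (SE, adjusted p = 0.0181), while SP100, another component of these bodies, fell by 1.68 ± 0.36 (SE) on the log2 scale (adjusted p = 0.00772, edgeR), and with limma on log2(FPKM + 1) its -0.70 missed the fold criterion. The PML call was lost without control replicates 2 (adjusted p = 0.0617) or 3 (0.0871) or CYT replicates 1 (0.0594) or 3 (0.0632). PARP12 was at 62.5, 50.1 and 45.7 CPM in control and at 16.6, 12.7 and 17.5 CPM after CYT, and fell by 1.76 ± 0.30 (SE) on the log2 scale (adjusted p = 0.00301), opposite to its relative PARP14. TRIM14, an adaptor of MAVS signaling, fell by 1.76 ± 0.50 (SE) on the log2 scale (adjusted p = 0.0259, edgeR), and lost the call without control replicates 1 (0.0721) or 3 (0.0697). NANS overlaps TRIM14 on the other strand and had more counts, 1503 to 1838 in control and 612 to 1096 after CYT, so reads of these genes cannot be told apart without strand. EIF2AK2 (PKR), the kinase that halts translation on double-stranded RNA, had -1.01 ± 0.35 (SE, adjusted p = 0.0541) and was called with the replicate block (-1.04, adjusted p = 0.00931), without CYT replicate 2 (-1.35, adjusted p = 0.00692), with DESeq2 (adjusted p = 0.0304), with no filter (adjusted p = 0.0444) and with the length and GC correction (adjusted p = 0.00129).

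**Figure D4:**
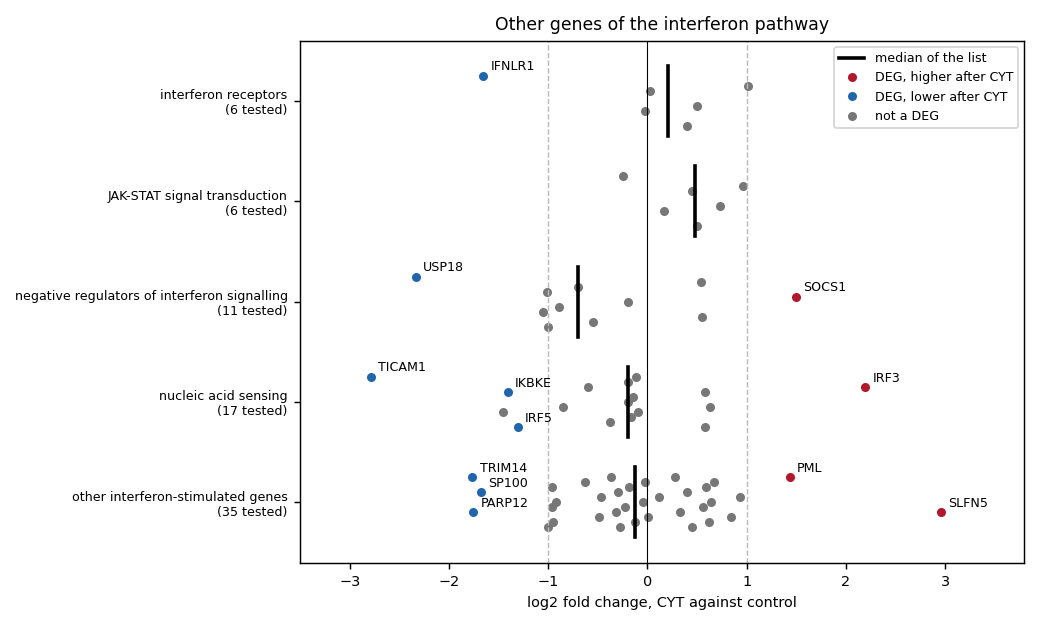
Log2 fold change of CYT against control (x axis) of the 75 tested pathway genes in 5 lists, with 1 point per gene, a black line at each list's median and dashed lines at the fold criterion. DEGs are colored and named: 4 are higher and 8 lower, and the list of negative regulators has the lowest median (-0.70).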

How the data were processed

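RNA libraries of MDA-MB-231-DR cells (3 control, 3 CYT) were grouped by sample titles. The authors separated mRNA, sequenced it on an Illumina NovaSeq platform, aligned clean reads with Hisat2 and deposited raw counts per gene. The deposited FPKM values were made by the authors with Stringtie per the methods, and where every library had at least 50 counts (10160 genes) they imply 1 fixed length per gene, to within 0.00209%. The submitters' notes list FastQC 0.12.1 and hg38, and the counting program and its use of strand are not given in the sources used here.

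Counts were tested with edgeR 4.0.16 (R 4.3.3): TMM, filterByExpr with a minimum count of 10, the quasi-likelihood test and Benjamini-Hochberg adjustment over 15572 genes. Standard errors were derived from the F statistic and the fitted log2 fold change. The scripts were tested on simulated counts. STING1 was found under its older symbol, and DDX58 in RefSeq under its newer one. Named are all members by role, DEGs of the pathway lists, and other pathway genes picked for their textbook roles. Members and lists were chosen with earlier results of these data known.

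Deviations from the group means correlated between libraries of the same number (0.188, 0.458 and 0.124, each over 0.1), and the replicate block takes these numbers as pairs. The labels state no pairing. Control 1 with CYT 3 (0.303) and control 3 with CYT 1 (0.201) correlated more than same-numbered pairs 1 and 3. These correlations therefore cannot decide whether the libraries were paired. Alternatives were DESeq2 1.42.0, limma 3.58.1 on log2(FPKM + 1), the replicate block, upper-quartile normalization, a stricter filter (mean of at least 5 CPM), no filter, a length and GC correction, no fold criterion, and leaving out each library. Some genes are not reported here.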

Additional observations from a re-analysis of the deposited data

How the results depend on the processing

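The count of higher members stayed between 6 and 10 in all settings run. Lower members numbered 4, but 2 with limma on log2(FPKM + 1) and with the stricter filter (mean of at least 5 CPM), and 3 with upper-quartile normalization and without control replicate 1 or 3 or CYT replicate 1 or 3. With the replicate block, in which the numbers are taken as paired, 7 members were higher and 4 lower, and of the pathway genes 4 were higher and 12 lower instead of 8. The block changed no call of a member, and of the named pathway genes it added SOCS3, TLR3 and EIF2AK2. Higher pathway genes numbered 4, but 7 with upper-quartile normalization and 5 with no fold criterion. Lower ones numbered 8, but 5 with limma, 7 with upper-quartile normalization and with the stricter filter, 9 with no filter and with the length and GC correction, and 11 with DESeq2 and with no fold criterion. Leaving out 1 library gave from 2 to 4 higher pathway genes (2 without control replicate 2, CYT replicate 1 or CYT replicate 3) and from 4 to 13 lower ones (4 without control replicate 1 or 3, and 13 without CYT replicate 2). For these counts the cause was not tested, beyond the smaller number of samples or genes.

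Upper-quartile normalization moved the median over all genes from 0.01 to 0.16 (log2 fold change) and that of the members to 0.25, so that the members lay 0.09 above all genes on both scales. Under it 10 members were higher, with STAT2 (1.14), IFIH1 (1.08) and IFIT2 (1.11) added, and 3 lower, without IFI16. In the DESeq2 fit, which tested 21474 genes, the members' median of 0.09 lay below the 0.20 of all genes (difference -0.11), and without a filter, over 32060 genes, 0.03 lay below 0.41 (difference -0.38). In both, the members' median was over the 39 tested in the main fit, while that of all genes took in genes below its filter. The sets are thus unlike. With a mean of at least 5 CPM the members' median was 0.46 over 32 tested, 0.45 above that of all genes.

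Of the members and the pathway genes named in the text, those that reversed were not DEGs, and their difference lay within its standard error. Upper-quartile normalization gave 0.0109 for IFITM2, 0.11 for OAS2, 0.027 for IFI44L and 0.13 for IFNAR2. No filter gave -0.0032 for IFITM1, -0.0498 for IFI35 and -0.0415 for IFNGR2, limma gave -0.0304 and the replicate block -0.0548 for IFI35, and the length and GC correction gave -0.11 for IFITM1, 0.032 for OAS2, 0.0398 for IFNAR2 and 0.19 for TYK2. IFNAR2 was 0.0768 with a mean of at least 5 CPM. Leaving out 1 library gave -0.0739 to 0.60 for DDX58, -0.11 to 0.30 for DHX58, -0.21 to 0.43 for IFITM1, -0.36 to 0.14 for IFITM2, -1.004 to 0.22 for BST2, -0.25 to 0.15 for OAS2, -0.72 to 0.0787 for MX2, -0.23 to 0.27 for IFI35, -0.53 to 0.46 for IFI44L, -0.12 to 0.054 for IFNAR2, -0.19 to 0.18 for IFNGR2, -0.46 to 0.0474 for TYK2 and -0.78 to 0.0666 for MAVS. Depth limits rare members such as IFITM1, MX2, IFI44L and BST2, whose standard errors ran from 0.53 to 0.93, and counting without known strand limits those that overlap another gene.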

Other observations

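The element search also covered genes outside the class. Of 10514 tested genes matched to a RefSeq window by symbol, 2.71% held GAAANNGAAA. Among all DEGs it was in 45 of 1305 windows of higher genes (3.45%) and in 32 of 1403 windows of lower genes (2.28%). These are descriptions of sequence, with no test.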
